A study of Mus musculus with 30 samples.

Results

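Female offspring of dams that drank estradiol (E2) were compared with female offspring of solvent controls by sequencing RNA of the whole liver at 10 weeks of age. E2 is the main oestrogen of the ovary, and ICR, the stock used, is an outbred laboratory mouse with no engineered allele named in the labels. The comparison took the 3 libraries labelled E2 female and the 3 labelled control female, 6 of the 30 libraries of the series, and all genes that passed a filter on low counts, 13874 of 17990 in the table. Dams of the E2 group took water with 10 ng/mL of E2 and 0.001% ethanol from the start of pregnancy until the pups were weaned, about 40 days, with a target daily dose of 5 µg/kg. Control dams took the same share of ethanol without E2. The labels name 8 dams per group and describe a library as the RNA of 1 liver, with the offspring drawn from litters of different dams. The offspring were thus sampled weeks after exposure had ended, on a purified-type diet and an even light and dark cycle, and the labels used here give no hour of liver collection. Of the series, the other 3 female groups (2,4-BPS, BPSIP and BPS, 3 libraries each, dams given a bisphenol in the same solvent) served for a second comparison in which the control libraries took no part.

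In the liver, E2 acts largely through oestrogen receptor alpha, the product of Esr1, and hepatic oestrogen signalling is known for its influence on lipid synthesis. Most differences between male and female liver are set by the pattern of growth hormone release, read in hepatocytes through STAT5. Many metabolic genes of the liver also follow the circadian clock, in which Arntl and Clock drive genes for their own repressors, so that activator and repressor transcripts peak at different hours of the day.

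The 6 libraries held 35426829 to 37357181 counts, and 4 Y-linked genes summed to at most 0.543 CPM, the counts of a gene scaled to library size, in any of them. The correlation of log2 CPM over genes was at least 0.995 between control libraries, at least 0.989 between E2 libraries and at most 0.981 between the groups. Within the E2 group, library 2 stood apart in relation to gene length, with a median deviation of −0.13 (log2) from its group over the longest class of genes (of 5 equal classes) and 0.11 over the shortest, and library 1 the reverse (0.10 and −0.09). The difference between the groups was not graded in this way (−0.014 and −0.010). Spread between libraries was low, with a common biological coefficient of variation of 0.0915 in the model, and p-values measure only the spread between these libraries. In whole liver RNA, fewer cells of a type and less RNA per cell cannot be told apart.

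**Figure D1:**
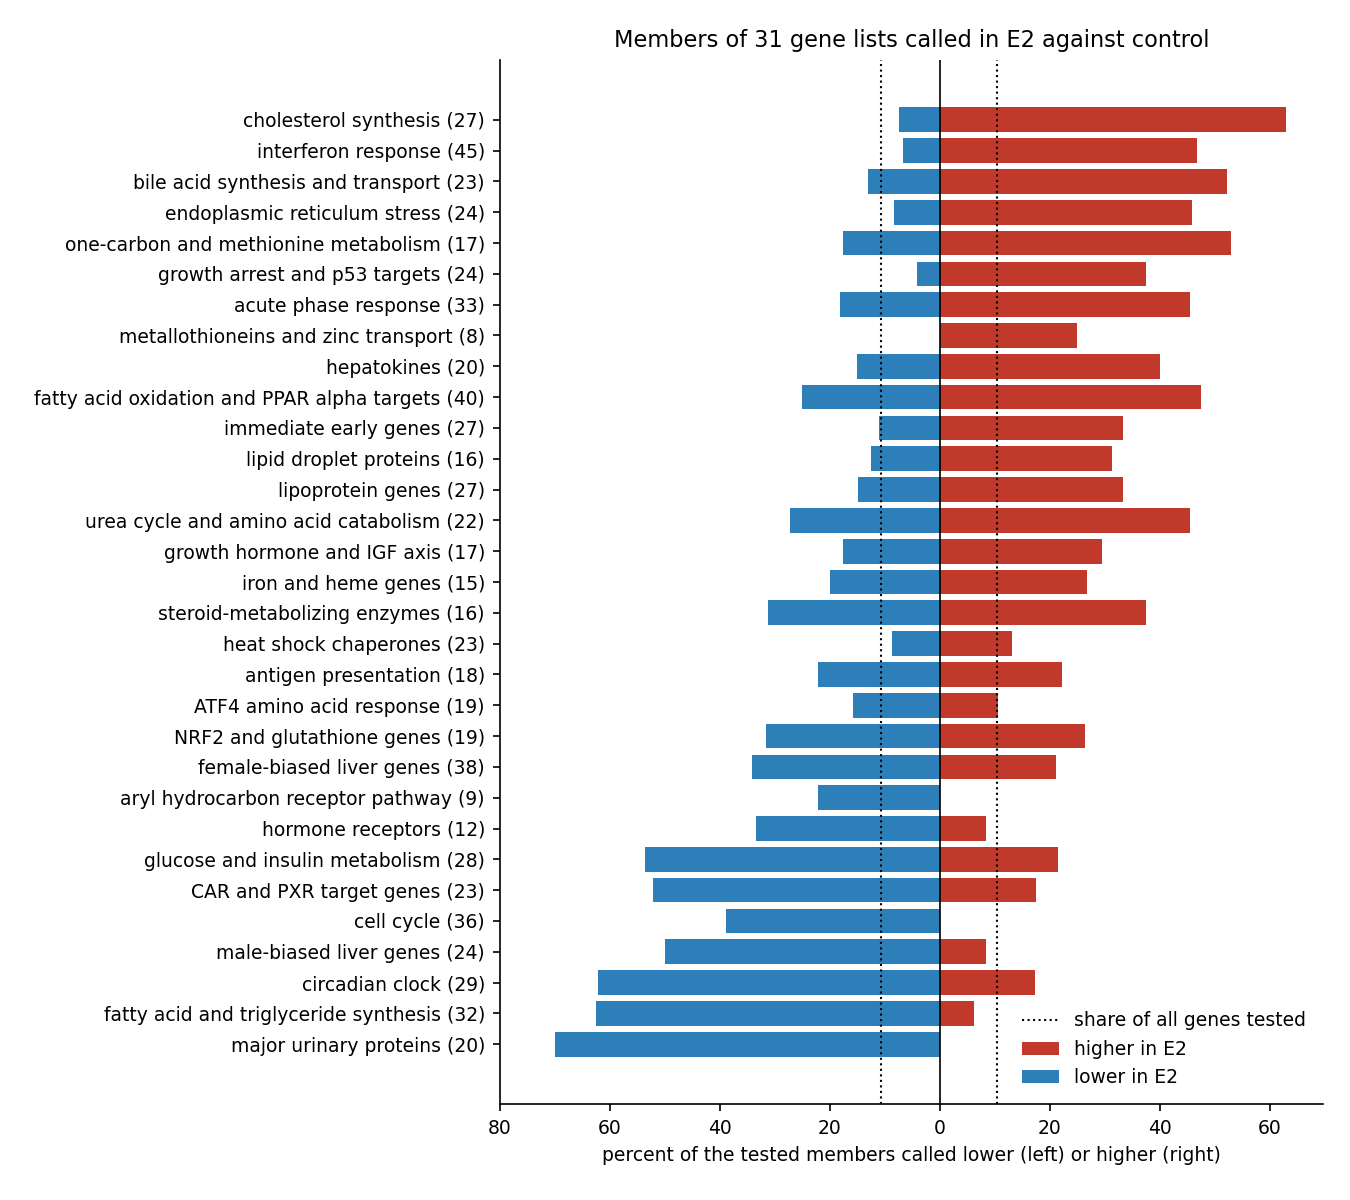
Percent of the tested members of 31 gene lists (number tested in brackets) called higher (red, right) or lower (blue, left) in E2 than in control livers at an adjusted p below 0.05. The dotted lines mark the share over all 13874 genes, 10.4% higher and 10.6% lower. Cholesterol synthesis has the largest share called higher, 17 of 27, and the major urinary proteins the largest called lower, 14 of 20.

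With edgeR's quasi-likelihood test and an adjusted p below 0.05, 1445 genes (10.4%) were higher and 1467 (10.6%) lower in E2 livers, 2912 or 21.0% in all. The median log2 fold change over all genes tested was −0.009. Most changes were small: 123 of the genes called rose and 233 fell by more than 2-fold, and 18 rose and 42 fell by more than 8-fold. In 2778 of the 2912 the E2 and control libraries did not overlap, which also held for 1918 genes without a call, 4696 or 33.8% of all genes tested. Fold changes below are log2, E2 over control, ± the standard error of the model, and levels are CPM in libraries 1, 2 and 3 of a group. Every count of list members called against control stands beside the shares over all genes, 10.4% higher and 10.6% lower.

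**Figure D2:**
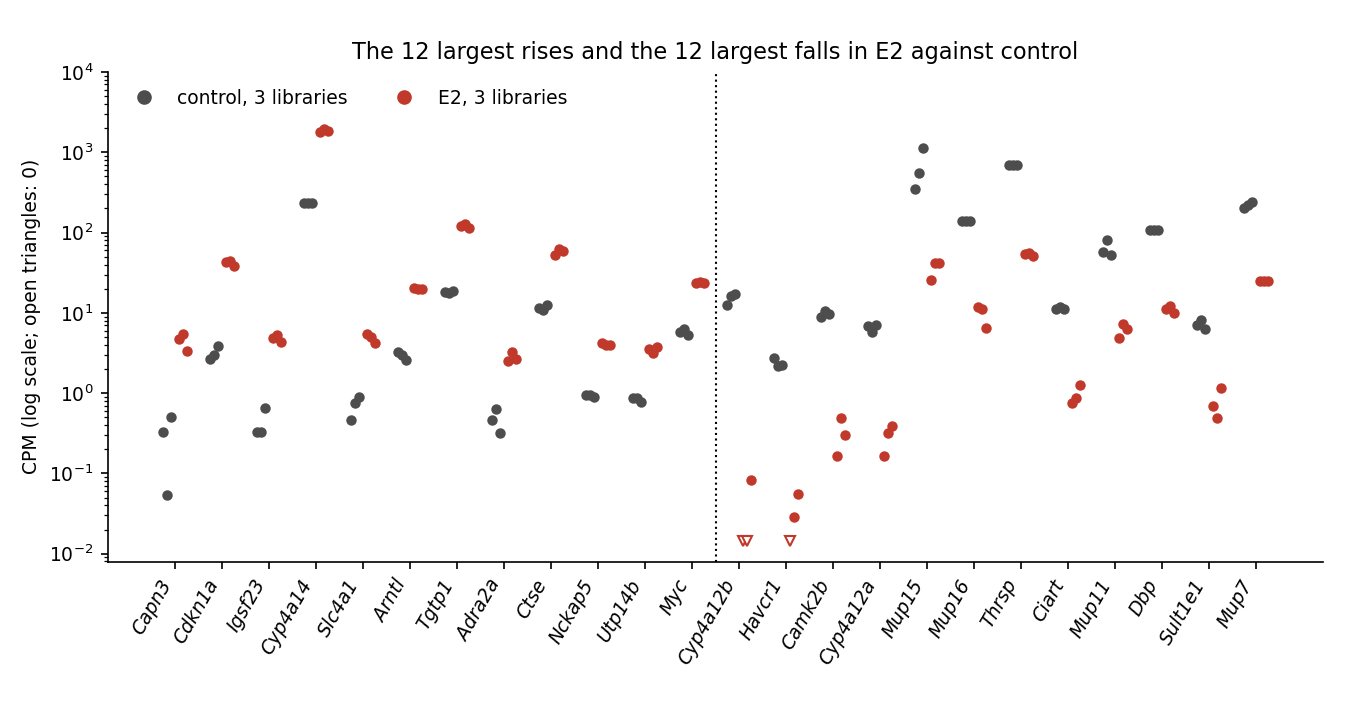
Level of the 12 genes with the largest rise and the 12 with the largest fall in each of the 3 control (grey) and 3 E2 (red) libraries, in CPM on a log scale, with open triangles for 0. By the rule that chose these genes the groups do not overlap. The largest rise is that of Capn3 (3.92 on the log2 scale) and Cdkn1a follows it. Cyp4a12b and Havcr1 lie lowest in E2.

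The clock genes changed in opposite directions along the loop. With no hour of liver collection in the labels, exposure and hour of collection cannot be told apart in these genes. The same holds for other genes that follow the clock. Arntl, which encodes the activator BMAL1, stood at 3.26, 2.97 and 2.62 CPM in control livers and 20.4, 19.9 and 19.7 in E2 livers. All E2 libraries lay above all control libraries (2.76 ± 0.14, edgeR adjusted p = 2.74e-18). Npas2, an alternative partner of BMAL1, had 0.326, 0.354 and 1.13 against 1.53, 1.90 and 1.57 CPM (1.46 ± 0.47, adjusted p = 0.0246). The call on Npas2 was lost without control library 1 (adjusted p = 0.129), control library 2 (0.125) or E2 library 2 (0.0593). Clock, the usual partner, read 31.7, 30.2 and 30.2 against 45.8, 29.5 and 46.9 CPM, with E2 library 2 among the controls (0.41 ± 0.11, adjusted p = 0.0101, 0.0653 without E2 library 3 and 0.115 in a fit of the 6 libraries alone).

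Clock-driven repressors and output factors were lower. Dbp, a D-box binding factor driven directly by BMAL1 and CLOCK, stood at 107, 107 and 109 CPM in control and 11.1, 12.1 and 9.95 in E2 livers (−3.28 ± 0.08, adjusted p = 5.82e-28). Ciart, a repressor of the BMAL1 and CLOCK complex, had 11.2, 11.9 and 11.1 against 0.749, 0.863 and 1.26 CPM (−3.56 ± 0.16). Neither gene had overlapping groups. Of the period genes, Per2 fell from 18.03, 17.98 and 16.0 to 6.66, 4.37 and 4.86 CPM (−1.71 ± 0.12) and Per3 from 30.4, 25.3 and 28.9 to 10.7, 6.65 and 7.20 (−1.79 ± 0.12). Per1 had a call at the edge of the threshold (−0.22 ± 0.08, adjusted p = 0.0465), lost in 10 of 13 alternatives with p up to 0.151. The cryptochromes divided: Cry2 fell (−0.59 ± 0.07), while Cry1 read 10.8, 8.58 and 8.75 against 9.65, 11.1 and 8.19 CPM (0.04 ± 0.12, adjusted p = 0.874). The nuclear receptor repressors of Arntl, Nr1d1 (−0.99 ± 0.07) and Nr1d2 (−0.95 ± 0.07), both fell, as did the E-box repressors Bhlhe40 (−1.27 ± 0.06) and Bhlhe41 (−3.27 ± 0.66, from near 1 CPM). Nfil3, which opposes DBP at D-boxes, rose from 17.0, 14.6 and 14.5 to 23.3, 23.3 and 22.9 CPM (0.59 ± 0.09).

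Downstream of the loop, the deubiquitinase gene Usp2 (−2.06 ± 0.09), the cell cycle kinase gene Wee1 (−2.26 ± 0.12) and the G protein regulator gene Rgs16 (−2.09 ± 0.06) were lower, and Alas1, the first enzyme of heme synthesis, was higher (0.73 ± 0.05). The 4 kinase and turnover genes of the list were not called. In all, 5 of 29 clock genes tested were higher and 18 lower, beside 10.4% and 10.6% of all genes, and their median was −0.59.

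**Figure D3:**
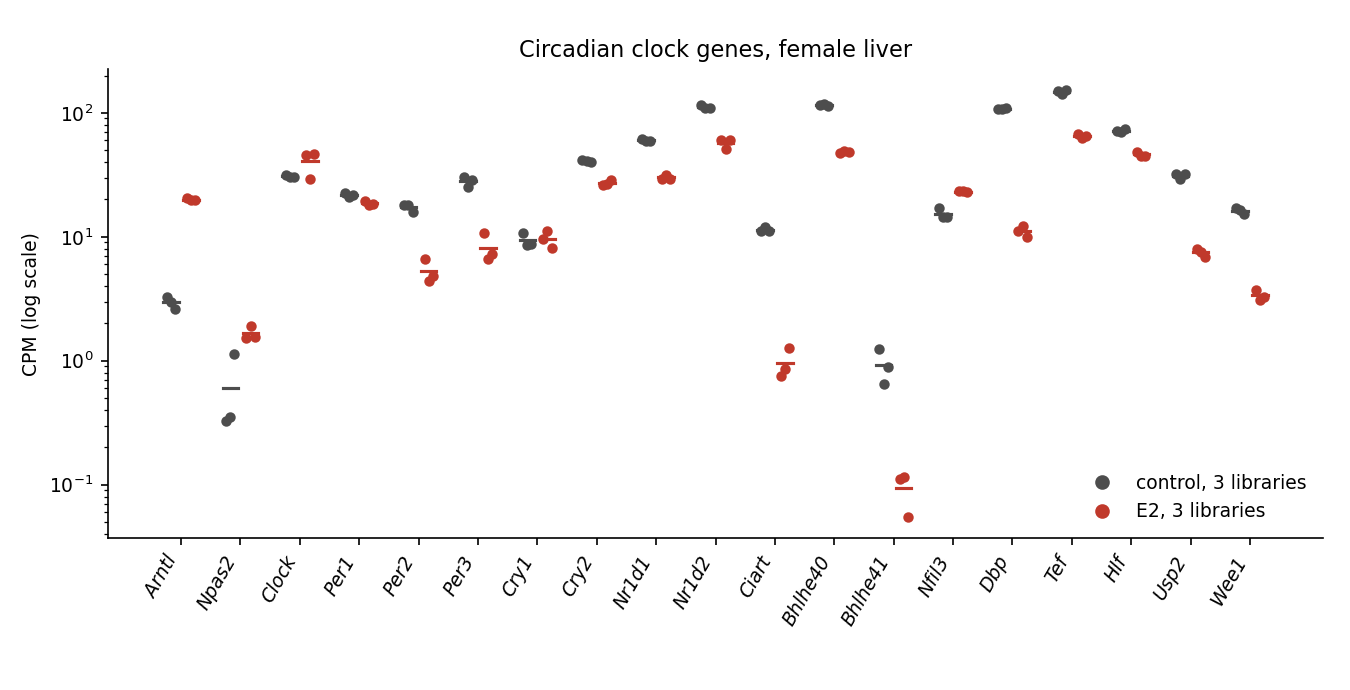
Level of 19 circadian clock genes in each of the 3 control (grey) and 3 E2 (red) livers, in CPM on a log scale, with bars at the group means. Arntl and Npas2 lie higher in E2, Dbp, Ciart, Bhlhe41, Per2 and Wee1 lower, and Cry1 overlaps.

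Promoter sequence was examined for motifs known from this pathway, as a description of the letters present. The E-box CACGTG, the binding site of BMAL1 and CLOCK, was present in the 250 bases before the start site of 5 of the 23 clock genes that have an entry in RefSeq's promoter set for GRCm38.p6 (21.7%), beside 6.86% of all 27025 genes in that set. The D-box spelling TTATGTAA, on either strand, was present in 1 of 23 (4.35%, beside 0.977%), and TTACGTAA in 0 of 23 (beside 0.118%). The 4 members with the largest fold changes that held a motif all fell, and the stretches below are shown because they place these letters upstream of them. They run 5′ to 3′ on the strand of the gene, with the motif in capitals.
Ciart (chr3:95882237-95882374, minus strand): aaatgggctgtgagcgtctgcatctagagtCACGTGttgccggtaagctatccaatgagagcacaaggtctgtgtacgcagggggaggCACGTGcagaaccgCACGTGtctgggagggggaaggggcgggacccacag
Bhlhe41 (chr6:145865538-145865603, minus strand): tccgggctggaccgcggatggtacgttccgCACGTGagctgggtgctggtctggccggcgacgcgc
Tef (chr15:81802516-81802581, plus strand): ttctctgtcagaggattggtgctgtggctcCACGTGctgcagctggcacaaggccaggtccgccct
Per3 (chr4:151044786-151044900, minus strand): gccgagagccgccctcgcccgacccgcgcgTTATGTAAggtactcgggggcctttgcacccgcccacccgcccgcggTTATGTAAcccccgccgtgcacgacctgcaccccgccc
Ciart, Bhlhe41 and Tef (−1.17 ± 0.06) show the E-box, with 3 copies in Ciart, and Per3 shows the D-box in 2 copies. Per1, with little change, and Cry1, which was not called, hold an E-box too. The palindromic oestrogen response element, GGTCA and TGACC spaced by 3 bases, was in 0 of the 23 windows and in 0.0666% of all genes, which says nothing of binding elsewhere.

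Genes of fatty acid and triglyceride synthesis were lower at most steps. Of 32 tested, 20 were lower and 2 higher, with a median of −0.46. Thrsp, a small protein that promotes lipogenesis, had 685, 686 and 687 CPM in control and 53.4, 56.3 and 50.8 in E2 livers, and Scd1, the desaturase that makes oleic acid, had 2265, 2237 and 2254 and 753, 773 and 769. The fall was 12.8-fold for Thrsp and 2.94-fold for Scd1. Among regulators, Srebf1, the master transcription factor of lipogenesis, read 125, 118 and 122 against 58.7, 61.8 and 60.3 CPM (−1.02 ± 0.06, adjusted p = 7.04e-17), and Mlxipl, the glucose-responsive factor ChREBP, 146, 138 and 131 against 93.4, 78.5 and 78.7 (−0.73 ± 0.06). Nr1h3, the oxysterol receptor LXR alpha upstream of Srebf1, was not called (−0.11 ± 0.06, adjusted p = 0.151, and 0.0499 with a filter at 10 CPM).

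Enzymes fell in the order of the pathway as follows. ATP citrate lyase (Acly), which supplies cytosolic acetyl-CoA, fell by 1.01 on the log2 scale, and both acetyl-CoA carboxylases fell, Acaca (−0.91 ± 0.07) and Acacb (−0.71 ± 0.06). Fatty acid synthase (Fasn) went from 243, 227 and 232 to 168, 144 and 165 CPM, and Elovl6, which elongates palmitate, from 62.7, 63.7 and 69.4 to 29.2, 24.5 and 30.2 (−1.22 ± 0.09). In neither gene did the groups overlap. Elongation and desaturation of polyunsaturated chains showed another picture: Elovl2 rose (0.28 ± 0.06), while Elovl5 (0.11 ± 0.05, adjusted p = 0.143) and Fads2 (−0.12 ± 0.06, adjusted p = 0.168) were not called and Fads1 fell (−0.36 ± 0.05). Of the genes that assemble triglyceride, Dgat2 fell (−0.50 ± 0.05), Dgat1 was not called (0.22 ± 0.10, adjusted p = 0.107) and Agpat2 rose (0.39 ± 0.05). Pnpla3, a lipogenic lipase-like gene, had 1.93, 3.41 and 3.27 against 0.749, 0.374 and 0.824 CPM (−2.13 ± 0.25).

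Cholesterol synthesis moved the other way, with 17 of 27 genes higher and 2 lower and a median of 0.49. Hmgcs1, the enzyme that makes HMG-CoA, read 133, 130.5 and 129 CPM in control and 418, 369 and 411 in E2 livers (1.61 ± 0.05, adjusted p = 1.69e-23). Sqle, which epoxidizes squalene, read 25.4, 24.7 and 29.3 against 68.3, 64.8 and 59.4 (1.28 ± 0.07). The groups stood apart in both genes. Srebf2, the transcription factor of the pathway, rose from 44.9, 43.6 and 44.9 to 74.6, 72.3 and 72.3 CPM (0.72 ± 0.06), so the transcripts of the paired factors Srebf1 and Srebf2 changed in opposite directions. Its inhibitors rose too, Insig1 (0.49 ± 0.06) and Insig2 (0.81 ± 0.05). Late sterol steps were uneven: Msmo1 (1.21 ± 0.06) and Cyp51 (1.00 ± 0.06) rose, Dhcr7 (−0.12 ± 0.06, adjusted p = 0.222) and Nsdhl (−0.13 ± 0.06, adjusted p = 0.147) were not called, and Tm7sf2 (−0.25 ± 0.06) and Ebp (−0.17 ± 0.06) fell slightly. The call on Ebp was lost without any 1 of the libraries control 1 to 3, E2 1 and E2 3 (adjusted p = 0.0619 to 0.261).

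**Figure D4:**
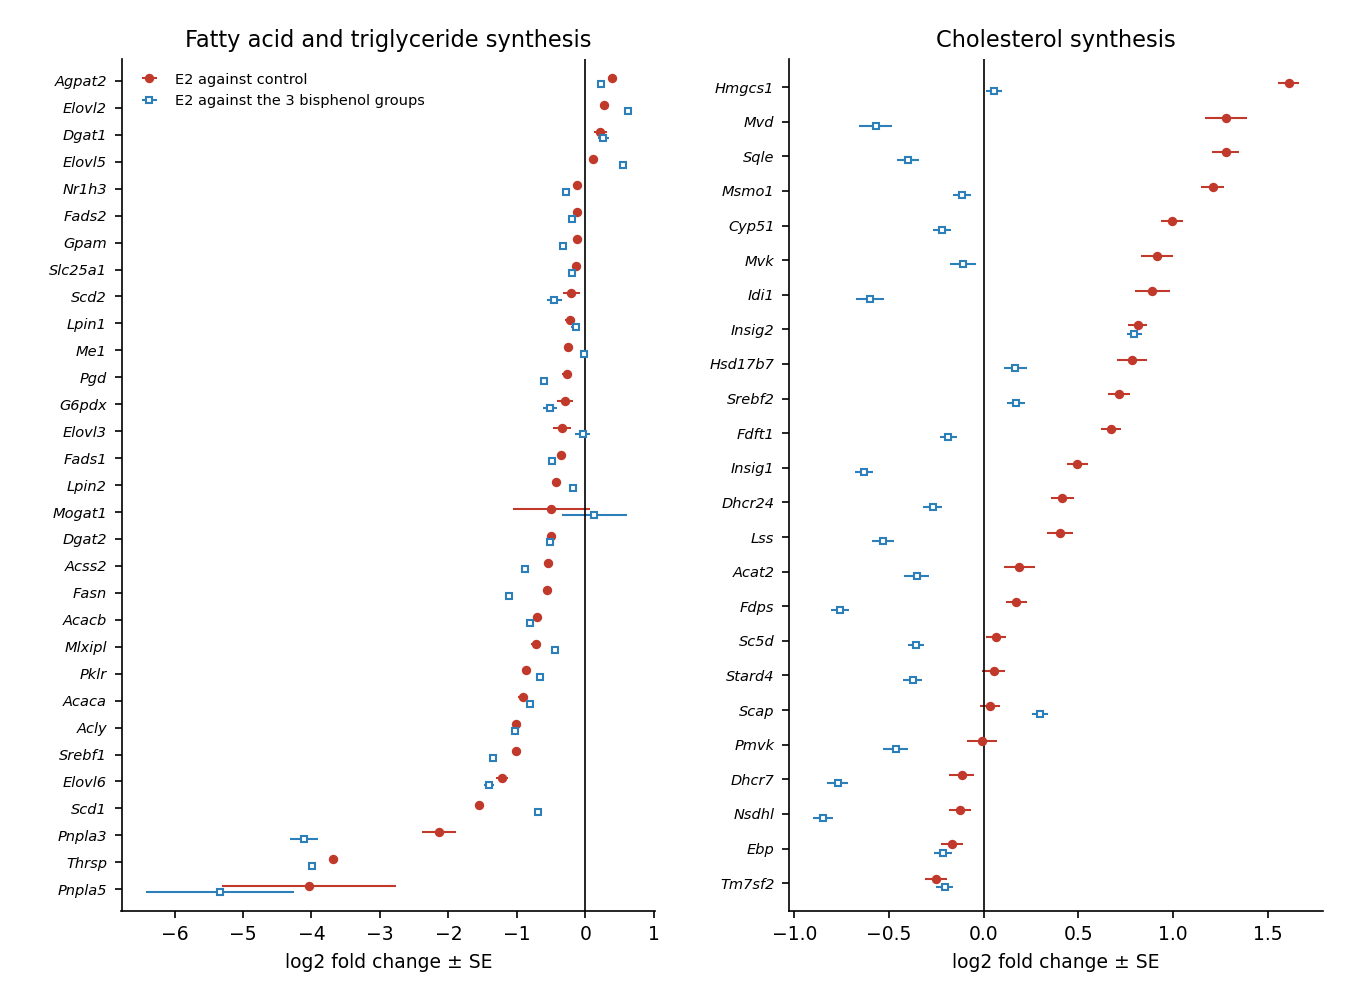
Log2 fold change ± standard error of 31 genes of fatty acid and triglyceride synthesis (left) and 24 of cholesterol synthesis (right), for E2 against control (red circles) and E2 against the mean of the 3 bisphenol groups (open blue squares), both from the fit of 15 libraries. Left, most points of both comparisons lie below 0, with Pnpla5 (23 counts in control and 1 in E2 libraries, and an adjusted p of 0.679 without control library 1) and Thrsp lowest against control. Right, most red points lie above 0 and most blue ones below, with Hmgcs1 at the top.

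The promoter set held 19 of these 27 genes. The CCAAT box, the site of NF-Y, was in 17 of 19 windows (89.5%, beside 37.5% of all genes). Its holders include Tm7sf2 and Ebp, which fell, and Dhcr7 and Nsdhl, which were not called. The core of the sterol response element, TCACNCCAC, was in 1 gene of 19 (5.26%, beside 1.22%). That gene is Hmgcs1, the member with the largest change, whose stretch carries both motifs (capitals mark TCACNCCAC once, and CCAAT as ATTGG on the opposite strand).
Hmgcs1 (chr13:119690101-119690340, plus strand): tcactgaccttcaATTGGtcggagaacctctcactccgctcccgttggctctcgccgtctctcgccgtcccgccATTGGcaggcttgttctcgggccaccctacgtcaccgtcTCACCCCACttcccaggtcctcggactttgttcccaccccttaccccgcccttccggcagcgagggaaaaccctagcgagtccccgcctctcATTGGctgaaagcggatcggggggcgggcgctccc

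Genes of fatty acid oxidation, most of them targets of PPAR alpha, were mixed, with 19 of 40 higher, 10 lower and a median of 0.12. The omega hydroxylases changed most. Cyp4a14 stood at 236, 233 and 234 CPM in control and 1804, 1949 and 1843 in E2 livers, 7.96-fold higher, and Cyp4a10 at 947, 844 and 963 and 2757, 2898 and 2903 (1.64 ± 0.08, adjusted p = 1.29e-14). Reads may be shared between near-identical members of the Cyp2, Cyp3a, Cyp4a, Sult, Mup and Saa clusters, so their single values are uncertain. Per length, the mean FPKM of Cyp4a14 went from 74.1 to 563 and that of Cyp4a10 from 452 to 1341, so that the order of their FPKM levels was the same in both groups.

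Outside the P450s, the peroxisomal enzyme gene Ehhadh rose (0.49 ± 0.05), as did the mitochondrial dehydrogenase genes Acadm (0.43 ± 0.05) and Acadvl (0.32 ± 0.05). Pdk4, which restrains glucose oxidation, read 12.1, 15.1 and 13.2 against 30.2, 27.1 and 30.3 CPM (1.11 ± 0.11), and the hormone gene Fgf21 4.75, 4.61 and 4.77 against 9.88, 8.98 and 7.58 (0.90 ± 0.19). The groups stood apart in both. Other targets fell: Ppara itself (−0.55 ± 0.07), the fatty acid carrier gene Fabp1 (−0.37 ± 0.06) and the thioesterase genes Acot3 (−0.66 ± 0.05) and Acot4 (−0.59 ± 0.06). Among lipid droplet genes, Plin4 (1.44 ± 0.21) and Plin5 (0.75 ± 0.07) rose, and 5 of 16 in all were higher (3 with a filter at 10 CPM) and 2 lower (1 without any single library).

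Oestrogen receptors and the enzymes of steroid turnover were examined as the machinery nearest to the exposure. Esr1 had 24.1, 20.7 and 20.005 CPM in control and 19.3, 11.7 and 19.4 in E2 livers, with E2 library 2 lowest. It was not called (−0.36 ± 0.14, adjusted p = 0.0719), and passed with DESeq2 (0.0207), with a filter at 10 CPM (0.0417) and without E2 library 1 (0.0270) or E2 library 3 (0.0199). Esr2, Gper1 and the progesterone receptor gene Pgr did not pass the filter on low counts. Sult1e1, which inactivates E2 by sulfation, fell from 7.11, 8.15 and 6.28 to 0.694, 0.489 and 1.15 CPM, 9.15-fold (−3.19 ± 0.25, adjusted p = 7.98e-13). It was the only 1 of 5 listed oestrogen inactivation genes called lower, with 2 higher and 2 not called. The summed level of the 5 was 1424.5 to 1441.5 CPM in control and 1550.4 to 1670.9 in E2 libraries. Cyp17a1, which makes androgen precursors, rose from 52.7, 50.3 and 53.9 to 86.5, 87.4 and 84.3 CPM (0.72 ± 0.07), and Srd5a1, a steroid 5 alpha-reductase gene, fell (−0.90 ± 0.08). Over the list of 16 steroid-metabolizing enzymes, 6 were higher and 5 lower.

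Sex-biased genes did not move as a block. Of 24 male-biased genes tested, 12 were lower and 2 higher, with a median of −0.38, and of 38 female-biased genes 13 were lower and 8 higher, with a median of −0.04. The male-biased hydroxylase gene Cyp4a12a fell from 6.81, 5.78 and 7.10 to 0.166, 0.317 and 0.385 CPM (−4.49 ± 0.31). Cyp4a12b had 1713 counts in the 3 control libraries and 3 in the 3 E2 libraries, a ratio of 548 (95% counting interval 187 to 2659, counting error only). Hsd3b5, a male-biased steroid reductase gene, read 46.0, 43.1 and 46.2 against 13.9, 12.7 and 11.05 CPM (−1.85 ± 0.08). Cyp2d9, also male-biased, rose (0.95 ± 0.08). Bcl6, a repressor of female-biased genes in male liver, read 15.5, 15.1 and 14.7 against 7.05, 6.88 and 7.20 CPM (−1.10 ± 0.11), and Cux2, its female-biased counterpart, also fell (−0.39 ± 0.07).

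Of 7 female-biased sulfotransferase genes 3 were higher and 1, Sult2a3, lower (−1.42 ± 0.15). Sult3a1 rose from 243, 251 and 254 to 695, 734 and 714 CPM (1.52 ± 0.05) and Sult3a2 from 48.2, 46.4 and 42.8 to 169, 169 and 171 (1.89 ± 0.06). Cyp2a4, a female-biased testosterone hydroxylase gene, fell from 1411, 1352 and 1356 to 488, 529.7 and 482 (−1.46 ± 0.06), and A1bg fell (−0.75 ± 0.05). The classical female marker Cyp2b9 was not called (−0.10 ± 0.05, adjusted p = 0.232). The major urinary proteins, pheromone carriers made in liver, were lower in 14 of 20 genes tested and higher in none, with a median of −1.36. Mup7 read 202, 219 and 241 against 24.8, 24.8 and 24.7 CPM (−3.16 ± 0.17), and Mup3, the member with the highest level in control, 3170.3, 3213 and 3385 against 1756, 1999 and 1766 (−0.82 ± 0.06). Mup15 spread widely among controls, 347, 546 and 1140.4 against 25.6, 42.1 and 42.0 CPM (−4.21 ± 0.41), without overlap.

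In the growth hormone axis, 5 of 17 genes were higher and 3 lower, and the STAT5-driven feedback genes Cish and Socs2 rose. Cish stood at 7.49, 7.55 and 8.41 CPM in control and 23.2, 25.8 and 23.5 in E2 livers (1.63 ± 0.10, adjusted p = 3.21e-15), and Socs2 at 23.9, 21.0 and 22.5 and 55.0, 58.2 and 49.9 (1.27 ± 0.08). The receptor gene Ghr fell from 474, 469 and 489 to 329.6, 324 and 331 (−0.54 ± 0.05). Igf1, the main growth hormone target for secretion, was not called (0.03 ± 0.06, adjusted p = 0.779), nor were Stat5a (−0.22 ± 0.11, adjusted p = 0.157) and Stat5b (−0.04 ± 0.06, adjusted p = 0.692). The IGF-binding protein genes Igfbp1, which insulin represses, and Igfbp2 rose (1.26 ± 0.06 and 0.87 ± 0.06).

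Glucose handling genes fell mainly in glycolysis (7 of 8 genes lower) and glycogen turnover (5 of 7). Of 28 tested, 15 were lower and 6 higher, and the higher count was 3 without control library 2, control library 3 or E2 library 3. Ppp1r3g, a subunit that directs phosphatase to glycogen after feeding, had 12.2, 16.1 and 15.4 CPM in control and 3.13, 2.33 and 2.50 in E2 livers (−2.45 ± 0.17, adjusted p = 7.33e-14). Gys2, the liver glycogen synthase gene, had 218, 211 and 213 and 98.6, 108 and 100.3 (−1.06 ± 0.05). Groups were apart in both. Pygl, which breaks glycogen down, fell as well (−0.57 ± 0.05), as did the glycolytic gene Pklr (−0.87 ± 0.05) and the fructokinase gene Khk (−0.53 ± 0.06). The gluconeogenic genes G6pc (0.07 ± 0.06, adjusted p = 0.449) and Fbp1 (0.00 ± 0.05, adjusted p = 0.968) were not called.

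Xenobiotic metabolism genes divided. Targets of CAR fell: Cyp2b10 from 27.1, 26.9 and 30.6 to 6.44, 8.17 and 6.95 CPM (−1.97 ± 0.10), Cyp2a5, the coumarin hydroxylase gene, from 1117, 1061 and 1090.0 to 302, 312 and 294 (−1.85 ± 0.06), and the glutathione transferase gene Gstm3 from 28.0, 31.8 and 28.4 to 8.32, 8.75 and 9.42 (−1.73 ± 0.09). The 3 Cyp3a genes on the list of CAR and PXR targets rose: Cyp3a11 (0.71 ± 0.06), Cyp3a13 (0.42 ± 0.06) and Cyp3a25 (0.75 ± 0.05). Nr1i3, which encodes CAR, fell slightly (−0.18 ± 0.06), a call lost without control library 1 (adjusted p = 0.0787) or E2 library 3 (0.132), and Nr1i2, which encodes PXR, was not called (−0.13 ± 0.06, adjusted p = 0.0966), but passed with a filter at 10 CPM (0.0273) and without E2 library 2 (0.0375). Of the aryl hydrocarbon receptor targets, Cyp1a2 fell (−1.27 ± 0.05) and Cyp1a1, at low level, fell too (−1.28 ± 0.28). Of the 20 target genes on the list, without its 3 receptor genes, 10 were lower and 4 higher.

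Bile acid genes were higher in 12 of 23 and lower in 3. Cyp8b1, which makes cholic acid, read 362, 341 and 359.7 against 578, 638 and 589.9 CPM (0.77 ± 0.06), and Nr0b2, the repressor SHP, 19.98, 18.9 and 18.3 against 33.8, 38.1 and 31.3 (0.85 ± 0.09). Cyp2c70, which makes muricholic acids in mice, fell from 495, 506 and 505 to 288, 304 and 279 CPM (−0.79 ± 0.05). The biliary sterol exporter genes Abcg5 (−0.46 ± 0.06) and Abcg8 (−0.81 ± 0.06) fell, while the phospholipid flippase gene Abcb4 rose (0.44 ± 0.05).

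A share of growth arrest genes rose and a share of cell cycle genes fell. Cdkn1a, which encodes the cyclin kinase inhibitor p21, stood at 2.69, 2.94 and 3.85 CPM in control and 43.5, 43.9 and 38.1 in E2 livers, 13.2-fold higher (3.72 ± 0.12, adjusted p = 7.60e-24). Gadd45g (1.58 ± 0.10) and Gadd45b (1.56 ± 0.16), stress-induced growth restraint genes, rose, and Gadd45a fell (−0.73 ± 0.20), a call lost without control library 1 (adjusted p = 0.0528) or E2 library 1 (0.0598). Most p53 feedback genes were not called, among them Mdm2 (0.15 ± 0.10, adjusted p = 0.294), Ccng1 (0.12 ± 0.08, adjusted p = 0.311) and Bax (0.27 ± 0.11, adjusted p = 0.0763, and 0.0298 without control library 2). In all 9 of 24 were higher and 1 lower. Myc, a growth-promoting factor, rose from 5.84, 6.32 and 5.32 to 23.4, 24.4 and 23.8 CPM (2.03 ± 0.12), and among immediate early genes 9 of 27 were higher and 3 lower, including Jun (1.01 ± 0.10) and Nr4a1 (1.37 ± 0.24) on the one side and Klf10 (−1.13 ± 0.09) and Maff (−1.54 ± 0.17) on the other.

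Of 36 cell cycle genes tested, 14 were lower and none was higher, with a median of −0.65. With a filter at 10 CPM, which most of these genes do not reach, 4 were lower. Ccnd1, the G1 cyclin with the highest CPM of the list, fell from 138, 133 and 138 to 77.3, 77.0 and 91.6 CPM (−0.73 ± 0.06), and Tk1, thymidine kinase, from 30.9, 27.9 and 27.5 to 15.4, 15.5 and 13.7 (−0.95 ± 0.08). The 19 mitotic genes had means of at most 3.82 CPM over the 6 libraries. Mki67, a marker of cycling cells, read 4.72, 3.84 and 4.37 against 4.22, 2.76 and 3.02 CPM and was not called (−0.37 ± 0.17, adjusted p = 0.126, and 0.0239 without E2 library 1), while Top2a fell (−0.75 ± 0.20).

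Interferon response genes were higher in 21 of 45 and lower in 3, and the change was uneven by class. Of 11 inducible GTPase genes, which act in defence against intracellular pathogens, 8 rose. Tgtp1 had 17.999, 17.8 and 18.7 CPM in control and 119, 127 and 114 in E2 livers (2.73 ± 0.07, adjusted p = 1.83e-27). Igtp had 65.1, 66.6 and 66.5 and 220.5, 252 and 217, and Irgm2 60.3, 59.5 and 61.1 and 144, 143 and 153. The groups stood far apart in these genes. Of 24 antiviral effector genes 9 rose and 2 fell. Xaf1 (1.10 ± 0.11), Zbp1 (0.88 ± 0.10) and Isg15 (0.61 ± 0.13) rose, whereas Ifit1 (0.11 ± 0.09, adjusted p = 0.442), Ifit3 (−0.06 ± 0.09, adjusted p = 0.738) and Oas1a (−0.16 ± 0.15, adjusted p = 0.524) were not called. The chemokine gene Cxcl9 fell (−0.47 ± 0.09, and adjusted p = 0.0634 in the fit of all 30 libraries).

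The interferon response element, TTTC and TTTC spaced by 2 bases on either strand, was in 18 of the 33 members with a promoter entry (54.5%), beside 3.46% of all genes. The stretches set members that rose beside Ifit3b, which holds the same letters and fell (−0.44 ± 0.15). The edgeR call on Ifit3b was lost without control library 2 (adjusted p = 0.145), control library 3 (0.0853), E2 library 2 (0.0773) or E2 library 3 (0.279). It was also lost in the fit of the 6 libraries alone (0.0809) and in that of all 30 libraries (0.103). Capitals mark the element, which appears as GAAA and GAAA where it lies on the opposite strand, and in Isg15 copies overlap.
Igtp (chr11:58199492-58199555, plus strand): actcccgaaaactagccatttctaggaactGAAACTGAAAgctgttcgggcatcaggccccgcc
Irgm2 (chr11:58214883-58214952, plus strand): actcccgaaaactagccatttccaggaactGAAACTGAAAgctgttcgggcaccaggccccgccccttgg
Gbp2 (chr3:142620574-142620643, plus strand): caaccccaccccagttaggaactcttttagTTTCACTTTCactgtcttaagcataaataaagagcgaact
Isg15 (chr4:156200845-156200926, minus strand): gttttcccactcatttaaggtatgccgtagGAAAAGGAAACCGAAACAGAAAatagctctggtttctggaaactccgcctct
Ifit3b (chr19:34607739-34607842, plus strand): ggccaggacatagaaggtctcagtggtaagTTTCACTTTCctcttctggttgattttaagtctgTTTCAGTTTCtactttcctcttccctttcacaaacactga
The element was thus present in members that rose, Igtp (1.80 ± 0.06), Irgm2 (1.28 ± 0.06), Gbp2 (1.15 ± 0.08) and Isg15, and in Ifit3b. Holders without a call include Ifit1, Ifit3, Oas1a and Cxcl10.

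Antigen presentation genes were higher in 4 of 18 and lower in 4. Class II genes, carried by macrophages, dendritic cells and B cells, were lower in 4 of 7: H2-Eb1 read 47.3, 44.8 and 44.1 against 20.7, 28.5 and 21.7 CPM (−0.94 ± 0.09) and Cd74, the invariant chain, 293, 302 and 286 against 206, 245 and 229 (−0.37 ± 0.06). H2-Aa, also lower, had a call at the edge of the threshold (edgeR adjusted p = 0.0404), lost in 8 of 13 alternatives with p up to 0.178. Genes of peptide supply for class I were higher in 3 of 7, Tap1 (0.73 ± 0.08), Tap2 (0.34 ± 0.08) and Psmb9 (0.65 ± 0.08). The class I genes themselves were higher in 1 of 4, H2-D1, and not called in 3. The call on H2-D1 was lost without any 1 control library or without E2 library 2 (edgeR adjusted p = 0.0504 to 0.0995). Markers of Kupffer cells and macrophages were lower in 8 of 14 and higher in 1, and their summed level was 1563 to 1627 CPM in control and 1373 to 1422 in E2 libraries. The count of lower markers was 5 without control library 3 or E2 library 1. Adgre1, the gene of F4/80, fell (−0.82 ± 0.08) and Clec4f, which marks resident Kupffer cells, was not called (−0.07 ± 0.06, adjusted p = 0.441). The part of such cells in the class II result was not tested.

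**Figure D5:**
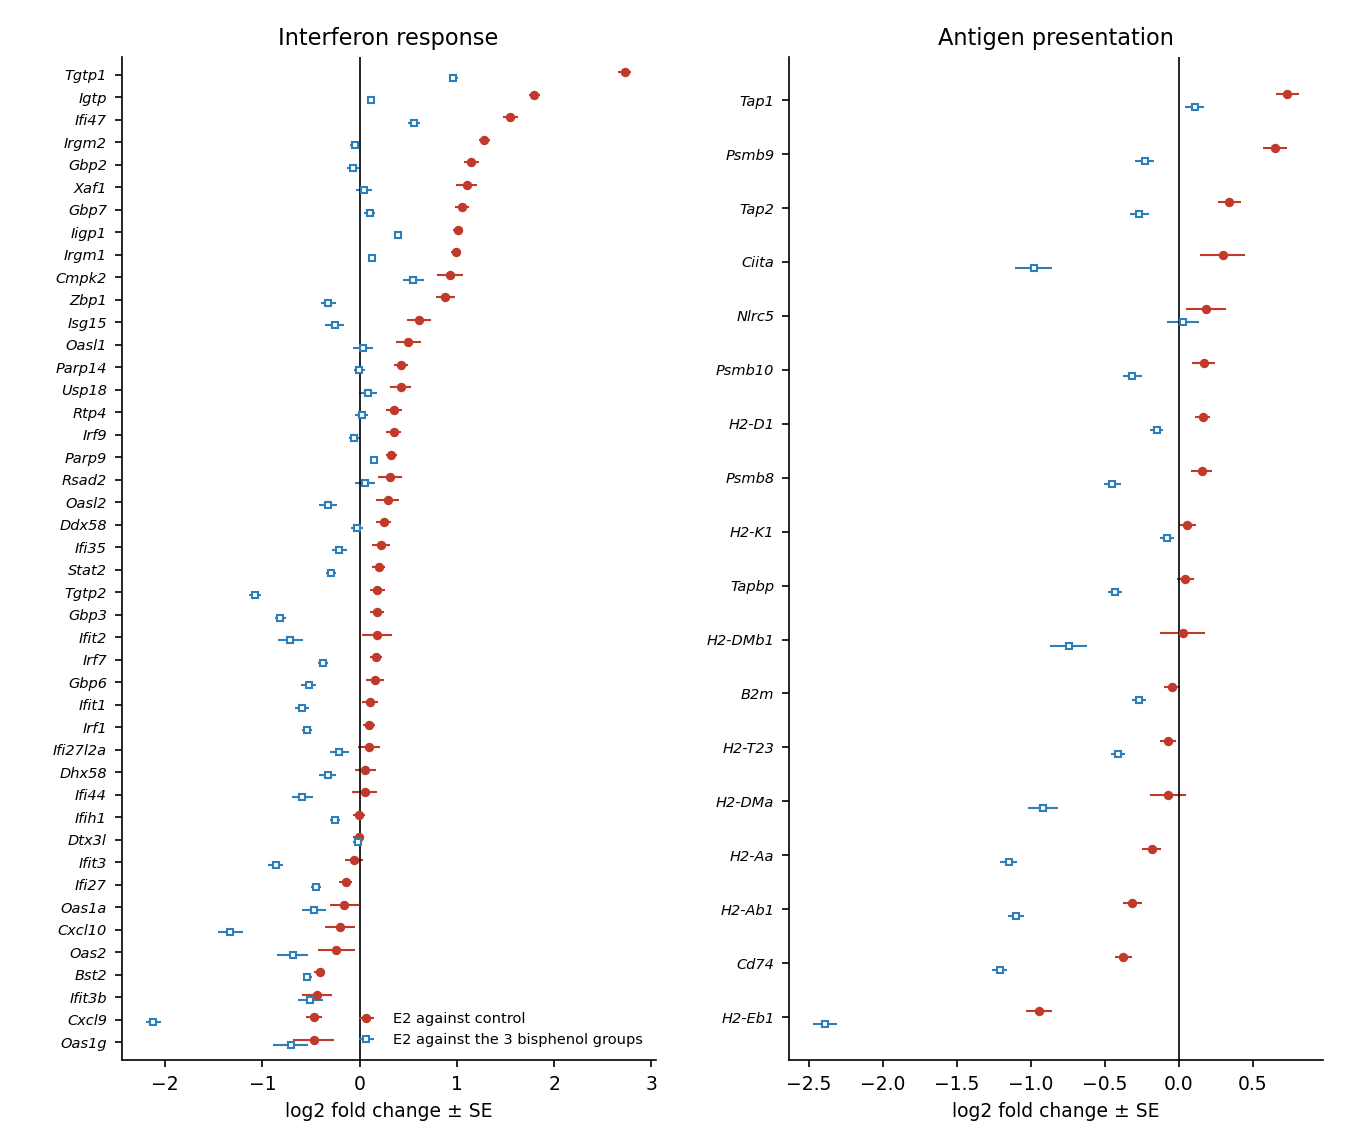
Log2 fold change ± standard error of 44 interferon response genes (left) and 18 antigen presentation genes (right), for E2 against control (red circles) and against the mean of the 3 bisphenol groups (open blue squares). The GTPase genes Tgtp1, Igtp and Ifi47 head the left panel, and H2-Eb1 and Cd74 lie lowest on the right.

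Acute phase genes were higher in 15 of 33 and lower in 6. The 3 fibrinogen genes rose together, Fga (0.65 ± 0.06), Fgb (0.59 ± 0.06) and Fgg (0.54 ± 0.06), with haptoglobin (Hp, 0.71 ± 0.06) and the endotoxin carrier gene Lbp (0.82 ± 0.06). The serum amyloid genes Saa1 (−0.40 ± 0.07), Saa2 (−0.39 ± 0.08) and Saa4 (−0.71 ± 0.05) and the orosomucoid genes Orm1 (−0.44 ± 0.05) and Orm2 (−0.86 ± 0.10) fell. Lcn2 was not called (0.11 ± 0.06, adjusted p = 0.237). Of endoplasmic reticulum stress genes, 11 of 24 were higher and 2 lower (1 without control library 1, 2 or 3, and 0 without E2 library 3), with the chaperone gene Hspa5 at 426, 411 and 417 CPM in control and 644, 663 and 627 in E2 livers (0.63 ± 0.06), while Ddit3, the gene of the death factor CHOP, was not called (−0.33 ± 0.18, adjusted p = 0.226).

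Markers of other cells were checked beside these groups. Hepatocyte markers were higher in 4 of 8 and lower in 2, (1 without E2 library 1), and Alb was not called (0.15 ± 0.06, adjusted p = 0.0713, and 0.0109 to 0.0478 in 5 of 13 alternatives, the highest without E2 library 1). Neutrophil markers were lower in 5 of 10, with a summed level of 36.1 to 46.5 CPM in control and 28.0 to 32.3 in E2 libraries, a count that was 3 without control library 1, E2 library 1 or E2 library 3 and 1 without control library 3 or in the fit of all 30 libraries. Sinusoidal endothelial markers were lower in 6 of 13 and higher in 1, with a summed level of 843 to 857 CPM in control and 728 to 795 in E2 libraries, and the lower count was 3 without control library 2, control library 3 or E2 library 1. Stellate cell markers were lower in 2 of 13, near the 10.6% of all genes called lower, with overlapping sums. The count was 1 without control library 1, control library 3, E2 library 2 or E2 library 3. None of 8 cholangiocyte and of 11 T and NK cell markers was called, with 1 cholangiocyte marker higher and 1 lower without control library 3, and 1 lower without E2 library 2. The part of any of these cells in the results was not tested. Erythroid markers divided. Slc4a1, the red cell anion exchanger, had 0.462, 0.763 and 0.890 CPM in control and 5.44, 5.07 and 4.18 in E2 livers (2.79 ± 0.26), and Ahsp, a globin chaperone gene, 0.190, 0.109 and 0.183 and 1.30, 1.76 and 1.59 (3.24 ± 0.52). The globin genes Hba-a1 (−0.10 ± 0.21, adjusted p = 0.804) and Hbb-bs (0.03 ± 0.13, adjusted p = 0.919) were not called and Alas2 fell (−0.60 ± 0.12). The higher count, 6 of 11, was 3 without control library 1, and 0 with a filter at 10 CPM, which those 6 do not reach. The summed level of the erythroid markers overlapped, 340 to 376 against 333 to 378 CPM.

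Several of the largest changes lay outside these lists. Capn3, a calpain protease gene, read 0.326, 0.0545 and 0.498 CPM in control and 4.77, 5.44 and 3.35 in E2 livers (3.92 ± 0.43), and Igsf23, an immunoglobulin family gene, 0.326, 0.327 and 0.655 and 4.799, 5.35 and 4.31 (3.45 ± 0.29). Ctse, the gene of the protease cathepsin E, rose from 11.3, 10.9 and 12.7 to 52.6, 62.3 and 58.6 CPM (2.31 ± 0.09). In the other direction, Camk2b, a calcium-dependent kinase gene, fell from 8.77, 10.7 and 9.64 to 0.166, 0.489 and 0.302 (−4.92 ± 0.24). Havcr1, known as the kidney injury molecule KIM-1, had 266 counts in control and 3 in E2 libraries, a ratio of 85.1 (95% counting interval 28.8 to 415). Cela1, an elastase gene, fell from 43.4, 49.0 and 47.9 to 9.54, 11.2 and 9.84 CPM (−2.20 ± 0.09). It was the only 1 of 3 pancreatic markers tested with a call, and the other 2 had −5.32 and 0.14. The summed level of the pancreatic markers was 44.3 to 50.1 CPM in control and 10.2 to 12.1 in E2 libraries. Cpa1 and Pnlip were at 0 in all 6 libraries.

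The second comparison set the 3 E2 libraries against the mean of the 3 bisphenol groups, asking where E2 differed from the other exposed females with no control library in use. It shares the E2 libraries with the first, so its values are given side by side and not as independent support. Of 13874 genes, 2205 (15.9%) were higher and 2348 (16.9%) lower in E2, 4553 or 32.8% in all, and in 1649 of these no bisphenol library reached the E2 range (12.2% of all genes tested did not overlap). The bisphenol groups differ among themselves, so E2 can differ from their mean and still lie within their range. That mean is of the groups' log2 levels in the model, so fold changes need not match the plain mean of the CPM printed below.

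Of the clock genes, 17 of 29 were lower and 3 higher in E2 than in the bisphenol mean, and 9 were not called. Arntl, at 20.4, 19.9 and 19.7 CPM in E2, was 3.85 to 13.8 over the 9 bisphenol libraries with a median of 8.08 (1.41 ± 0.09 against their mean, adjusted p = 8.24e-15). Dbp, at 11.1, 12.1 and 9.95, was 49.5 to 76.8 with a median of 63.5 (−2.47 ± 0.07), and Ciart, at 0.749, 0.863 and 1.26, was 7.69 to 22.4 with a median of 14.0 (−3.77 ± 0.14). All 3 E2 libraries lay above the 9 others in Arntl and below them in Dbp and Ciart.

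Lipid synthesis gave the same side as against control, with 24 of 32 lower and 4 higher. Thrsp was 501 to 1244 CPM over the bisphenol libraries, median 1028, against 53.4, 56.3 and 50.8 in E2 (−4.00 ± 0.06). Cholesterol synthesis gave the opposite side, with 20 of 27 lower and 4 higher in E2. For Sqle the group means were 46.9 CPM in 2,4-BPS, 190.2 in BPSIP and 67.9 in BPS, and the E2 libraries read 68.3, 64.8 and 59.4 (−0.40 ± 0.06). The BPSIP group had the highest level, and the E2 libraries lay above the mean of 2,4-BPS.

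Oxidation genes were higher in 31 of 40 and lower in 3 against the bisphenol mean. Cyp4a14 was 173 CPM in 2,4-BPS, 95.5 in BPSIP and 1023 in BPS, all below the E2 libraries (2.86 ± 0.04). Igfbp1 was 45.4, 7.26 and 200.2 (2.23 ± 0.05), so BPS lay near E2 and the other groups far below. Cyp17a1 was 9.29 to 70.1 over the 9 libraries, median 18.1, against 86.5, 87.4 and 84.3 in E2 (1.92 ± 0.06). Fst, the activin-binding follistatin gene, was 0.219 to 1.07, median 0.538, against 3.94, 4.86 and 4.09 (2.97 ± 0.24), although it was not called against control (0.24 ± 0.29, adjusted p = 0.644). Adra2a, an adrenergic receptor gene, was 0 to 1.69 against 2.50, 3.28 and 2.67 (3.11 ± 0.33) and rose against control as well (2.58 ± 0.41).

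In the proliferation, immune and endoplasmic reticulum stress lists that follow, more members were lower than higher against the bisphenol mean. Cell cycle genes were lower in 24 of 36 and higher in none, interferon response genes lower in 25 of 45 and higher in 7 (the GTPases among them higher in 5 of 11 and lower in 3), antigen presentation genes lower in 15 of 18 and endoplasmic reticulum stress genes lower in 21 of 24. Cxcl9 was 78.5 CPM in 2,4-BPS, 203 in BPSIP and 44.6 in BPS against 18.3, 20.9 and 22.3 in E2 (−2.12 ± 0.08), and H2-Eb1 was 92.4, 374 and 54.8 against 20.7, 28.5 and 21.7 (−2.39 ± 0.08). For Igtp, which rose against control, the bisphenol means were 170.1, 444 and 126 and the E2 libraries 220.5, 252 and 217 (0.12 ± 0.05, adjusted p = 0.0473), so E2 lay inside their range. The sign holds against the mean of log2 levels. The plain mean of these bisphenol CPM lies above that of the E2 libraries. The call on Igtp was lost in 10 alternatives, with an adjusted p of 0.447 without E2 library 2 and of 0.0507 to 0.0887 without single bisphenol libraries (2,4-BPS 1 or 3, BPSIP 1 or 2, BPS 1, 2 or 3). Saa1 was 74.3 to 179 over the 9 libraries, all above the E2 values of 27.5, 35.5 and 30.7 (−1.93 ± 0.07). All 14 Kupffer cell and macrophage markers were lower in E2 than in the bisphenol mean, and their part in these results was not tested. Esr1 was 32.5 to 60.6 CPM, median 36.0, over the bisphenol libraries, above every E2 library (−1.28 ± 0.12, adjusted p = 6.63e-08).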

How the data were processed

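RNA of whole liver, 1 liver per library, was sequenced with an mRNA kit, per the labels. Reads were aligned with HISAT2 and counted per gene with HTSeq, and DESeq2 and R 3.2.0 are named too, per the submitters' processing notes. The authors deposited a count table and an FPKM table over the same symbols. The strand setting, genome build and annotation were not given in the sources used here. FPKM as deposited equal the counts divided by library sum and gene length, with a largest relative deviation of 3.15e-06, and served only to compare levels between genes.

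The 15 female libraries were fitted together with edgeR 4.0.16 (R 4.3.3): filterByExpr, TMM factors, a robust quasi-likelihood model and glmQLFTest, with Benjamini-Hochberg adjustment over 13874 genes and a threshold of 0.05. The standard error is the absolute log2 fold change over the square root of F. CPM use TMM-scaled library sizes. The method was also run on counts simulated from the fitted model, which cannot test that model's assumptions for these data. Members and gene lists were chosen with earlier results of these data known. Named are the 12 largest changes each way among genes called that average 1 CPM or more and do not overlap between groups (8 for the second comparison), the members of lists marked as key genes, and the 6 called members with the smallest p of each list; predicted models and pseudogenes were left out. A further 30 genes, chosen after their values were seen, are named to fill out a pathway: Acadm, Acadvl, Agpat2, Alb, Bax, Clec4f, Cry2, Cyp3a13, Dgat1, Dhcr7, Ebp, Elovl2, Fabp1, Fads1, Fads2, Fbp1, Fgg, Hba-a1, Hbb-bs, Ifit3b, Khk, Mtr, Nr1h3, Nsdhl, Oas1a, Stat5a, Sult2a3, Tm7sf2, Xaf1 and Zbp1. Where a group had 1 to 3 counts, a ratio of counts with its 95% exact interval is given, which covers counting error only. Promoter sequences are RefSeq's for GRCm38.p6, and motifs were searched on both strands in the upstream 250 bases. Some members of the lists enter the counts but are not reported here by name.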

Additional observations from a re-analysis of the deposited data

How the results depend on the processing

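Counts of genes called among all genes tested kept within 1.5 times of those reported under every alternative but one. Testing against a minimum fold of 1.5, stricter by construction, gave 118 higher and 170 lower against control, and 168 and 304 against the bisphenol mean. Leaving out 1 of the 6 libraries at a time gave 1115 to 1521 higher and 1135 to 1420 lower against control. Leaving out 1 of the 3 E2 or 9 bisphenol libraries gave 1834 to 2261 and 1986 to 2312 against the bisphenols. Against control, DESeq2 gave 1562 and 1539, and a filter at 10 CPM 1212 and 1370. With the replicate number as a block, the counts were 1382 and 1428 against control and 2165 and 2304 against the bisphenols. Deviations from the group mean correlated at 0.102, 0.0953 and −0.0133 between same-numbered control and E2 libraries. Between libraries of unlike number the values were −0.139 to 0.0736. With 3 libraries per group they cannot show whether the numbers pair the livers. Of 300 named genes with a call, 254 kept it under the 13 alternatives other than the minimum fold, 46 lost it under 1 or more, 187 lost it under the minimum fold and 113 kept it under all 14, and none changed direction with a call; the cause was not tested. Of 87 without a call, 28 gained one. Of 30 genes named outside the rule 17 had a call; 2 of these lost it and 3 others gained one under the 13, and 14 lost it under the minimum fold. Counts of list members called were less stable than those over all genes. Of 90 such counts, 26 moved by more than 1.5 times, or to or from 0, under 1 or more of the 13. Among the 36 counts of at least 5, 7 did so. Depth limits genes near 1 CPM, such as the mitotic and erythroid genes.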

Other observations

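Of 17 one-carbon and methionine genes tested, 9 were higher and 3 lower. Bhmt, the betaine-dependent route to methionine, stood at 3401, 3384 and 3476 CPM in control and 6244, 6798 and 6461 in E2 livers (0.93 ± 0.05, edgeR adjusted p = 3.34e-17), and Mtr, the folate-dependent route, at 9.99, 11.3 and 10.9 and 6.71, 4.26 and 7.01 (−0.84 ± 0.15). The groups did not overlap in either gene. Nnmt, which consumes methyl groups on nicotinamide, fell from 81.5, 90.5 and 85.4 to 30.4, 41.1 and 29.5 CPM (−1.35 ± 0.09). Cth (0.83 ± 0.05) and Cbs (0.53 ± 0.05), which carry homocysteine to cysteine, both rose.

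Of 27 lipoprotein genes 9 were higher and 4 lower, with Apoa4 (0.82 ± 0.06), Apoa1 (0.53 ± 0.06) and the HDL receptor gene Scarb1 (0.52 ± 0.05) higher and Angptl8, a feeding-induced inhibitor of lipoprotein lipase, lower (−0.53 ± 0.09). Of 22 genes of the urea cycle and amino acid catabolism 10 were higher and 6 lower: Cps1, the entry enzyme of the cycle, rose (0.27 ± 0.06), while Otc fell (−0.23 ± 0.05). Hal, histidine ammonia lyase, rose (0.70 ± 0.05). Among iron genes the transferrin receptor gene Tfrc rose from 11.7, 12.5 and 11.3 to 24.8, 18.8 and 22.3 CPM (0.89 ± 0.09), and Id1, a target of BMP signalling, fell (−0.66 ± 0.14). The hepatokine gene Lect2 fell from 219.8, 226 and 230.1 to 127, 132 and 124 CPM (−0.82 ± 0.05), and Hspb1, a small heat shock protein gene, rose (1.03 ± 0.21). Slc7a11, the cystine importer, had 24 counts in control and 1 in E2 libraries, with a 95% counting interval of 3.75 to 947 for the ratio (counting error only), and its call was lost without control library 2 (adjusted p = 0.0884), E2 library 1 (0.0786) or E2 library 3 (0.0856).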
